A study of Mus musculus with 6 samples.

Results

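Messenger RNA of the T cell receptor complex and of the CD28 receptor family was measured in cells sorted from inflamed mouse skull bone. The group holds 10 genes, chosen by name: the CD3 chain genes Cd3d, Cd3e, Cd3g and Cd247, the kinase gene Lck, the coreceptor gene Cd4, the adhesion gene Cd2, and Cd28, Icos and Ctla4 of the CD28 family. All 10 were found among the 23284 gene names of the files. The cells were EGFP-positive cells of CX3CR1-EGFP mice, in which the fractalkine receptor locus drives the reporter, and both groups had received lipopolysaccharide (LPS), a bacterial product that provokes inflammation, at the periosteum of the calvaria. The CTLA4-Ig group had also received 10 mg/kg of CTLA4-Ig (abatacept), a fusion protein of the extracellular part of CTLA-4 with an immunoglobulin Fc region, and the control IgG group 10 mg/kg of whole human IgG. Cells were sorted after 5 days, giving 3 libraries per group. The mice's age, sex and the number of animals per library are not stated in the sources used here, so p-values measure the spread between these libraries.

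The T cell receptor binds peptide on MHC molecules but has no signalling part of its own. CD3 gamma, delta, epsilon and zeta (the product of Cd247) carry the signal, which starts when LCK, brought near by CD4 or CD8, phosphorylates their tails. CD28 gives the second signal on binding CD80 or CD86, ICOS does so through a ligand of its own, and CTLA-4 competes with CD28 for CD80 and CD86 and restrains the cell. CTLA4-Ig uses the same contact to cover CD80 and CD86 on antigen-presenting cells. Several of these genes are not restricted to T cells: NK cells also use Lck, Cd2 and Cd247, and mouse plasmacytoid dendritic cells also use Cd4. The comparison asks how much T cell transcript the sorted cells carried and whether it differed after the drug.

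The contact with CD80 and CD86 is the feature that links the drug to these genes, so the coding stretch around it is shown for the CD28 family. The sequences are GENCODE M21 transcripts on GRCm38, plus strand of chromosome 1, within coding exons, at chr1:60912698-60912745 for Ctla4, chr1:60763260-60763307 for Cd28 and chr1:60993968-60994015 for Icos. Capitals mark the 18 bases that encode the loop with a run of prolines, which in CTLA-4 and CD28 touches CD80 and CD86.
Ctla4: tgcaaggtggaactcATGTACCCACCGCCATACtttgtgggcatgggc
Cd28: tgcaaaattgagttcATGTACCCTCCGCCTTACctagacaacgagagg
Icos: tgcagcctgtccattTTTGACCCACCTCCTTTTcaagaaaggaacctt
Within the capitals, Ctla4 and Cd28 were identical at 16 of 18 bases, and Icos was identical to each of them at 11 of 18. ICOS does not bind CD80 or CD86. The injected CTLA4-Ig is a protein and adds no Ctla4 transcript.

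T cell transcript was scarce in both groups. The 10 genes together summed to 10.6, 10.7 and 15.2 FPKM in CTLA4-Ig libraries 1, 2 and 3, against 8.57, 12.1 and 16.8 FPKM in control IgG libraries 1, 2 and 3. FPKM are fragment numbers divided by transcript length and by the size of the library. The lowest and the highest sum both lay in the control IgG group, so the groups overlapped. As a share of all FPKM the sum was 0.00148 ± 0.000294% with CTLA4-Ig and 0.00169 ± 0.000593% in controls (SD, n = 3 each). In these bulk samples, fewer T cells and less RNA per T cell cannot be told apart. All 10 genes were above 0 in all 6 libraries, and their single values ran from 0.0581 FPKM (Ctla4) to 5.19 FPKM (Lck).

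Sequencing depth, read from the value that 1 fragment gives in rare transcripts, was about 8490000 to 10210000 fragments in the CTLA4-Ig group and 8540000 to 9230000 in the control IgG group. At that depth the rarest members rest on very few fragments. For Ctla4 the values came to about 1, 4 and 2 fragments with CTLA4-Ig, against 3, 2 and 4 in controls. For Icos they came to about 4, 5 and 6 fragments with CTLA4-Ig, against 2, 4 and 3 in controls, and for Lck to between 33 and 101 over the 6 libraries. These numbers are estimates from FPKM and the longest coding transcript of each gene, not counts.

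**Figure D1:**
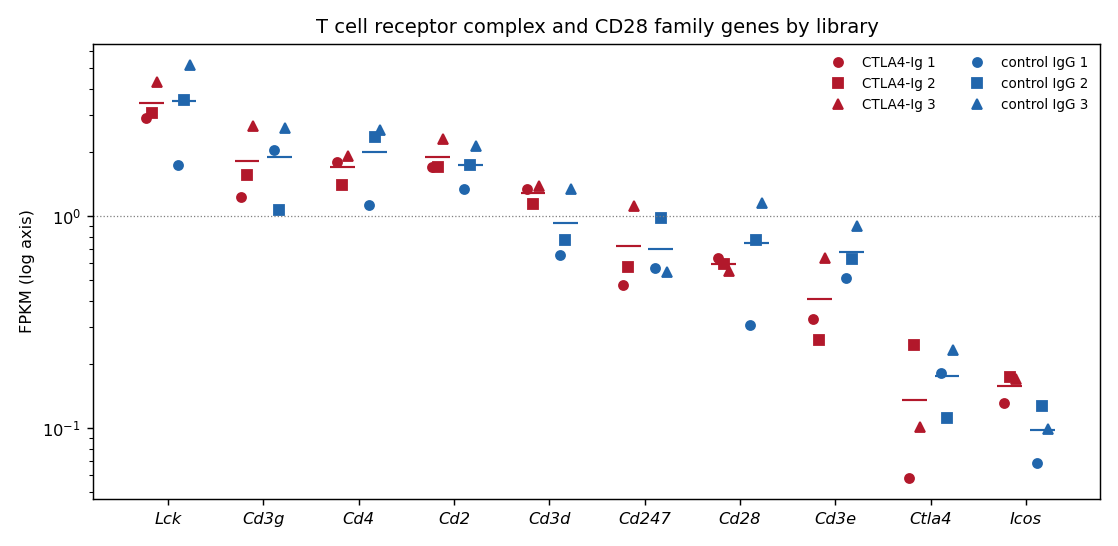
FPKM on a log axis for each gene, ordered by mean level; each symbol is 1 library (circle, square and triangle for libraries 1, 2 and 3), bars are group means, and the dotted line is the filter of 1 FPKM. All 10 genes have a value in every library, and the symbols of the groups overlap for each gene except Icos.

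No member passed the test between CTLA4-Ig and control IgG. The test was limma on log2(FPKM + 1) in the 10865 genes that averaged 1 FPKM or more, and 0 (0.0%) of them passed a threshold of 0.05 after Benjamini-Hochberg adjustment; 659 (6.07%) had an unadjusted p under 0.05. Of the members, 5 passed the filter (Lck, Cd3g, Cd4, Cd2 and Cd3d) and 5 did not (Cd247, Cd28, Cd3e, Ctla4 and Icos), and those under it are given from the same fit without a filter, over 16897 genes with a value above 0, of which 0 (0.0%) were called and 892 (5.28%) had an unadjusted p under 0.05. Across both fits 0 of 10 members were called and 0 had an unadjusted p under 0.05, and the 95% interval of all 10 differences held 0. The log2 fold change was positive for 5 and negative for 5, with a median of -0.0133, beside -0.0063 over all genes tested with the filter and -0.0042 without it. In 1 of 10 members (Icos) the groups did not overlap, where 9.84% of the 16897 genes did not.

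**Figure D2:**
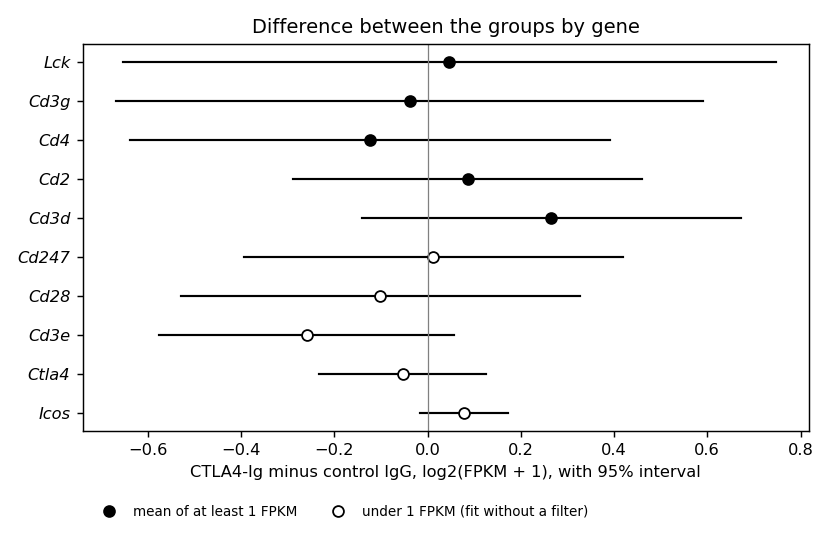
Difference of CTLA4-Ig minus control IgG on the scale of log2(FPKM + 1), with its 95% interval from limma, for each gene; filled points passed the filter of 1 FPKM and open points come from the fit without a filter. All 10 intervals cross 0, and that of Lck, the widest, runs from -0.65 to 0.75.

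Among the chains that carry the signal, Cd3g and Cd3d were the most abundant. Cd3g (chromosome 9, 44969572 to 44980431, GRCm38) had 1.23, 1.57 and 2.67 FPKM with CTLA4-Ig, against 2.06, 1.07 and 2.60 FPKM with control IgG. Each group held 1 library near 1 FPKM and 1 above 2.5, and the log2 fold change was -0.04 ± 0.26 (SE; limma adjusted p = 0.989). Cd3d (chromosome 9, 44981769 to 44987052) had 1.34, 1.14 and 1.40 FPKM with CTLA4-Ig, against 0.655, 0.775 and 1.35 FPKM with control IgG. Of the controls, library 3 lay within the CTLA4-Ig range and the other two below it. The log2 fold change of Cd3d was 0.27 ± 0.17 (SE; limma adjusted p = 0.890), with a 95% interval of -0.14 to 0.67.

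Cd3e (chromosome 9, 44998735 to 45009663) encodes the epsilon chain, which pairs with both the gamma and the delta chain. It had 0.326, 0.260 and 0.638 FPKM with CTLA4-Ig, against 0.513, 0.629 and 0.903 FPKM with control IgG. The values of Cd3e rest on about 4, 3 and 10 fragments with CTLA4-Ig, against 6, 8 and 12 in controls. The groups overlapped through CTLA4-Ig library 3, and the log2 fold change was -0.26 ± 0.13 (SE; limma without a filter, adjusted p = 0.946). With a pseudocount of 0.1 in place of 1 it was -0.66 for Cd3e and 0.49 for Cd3d, since a pseudocount of 1 shrinks the differences of low genes; neither was called. Cd247 (chromosome 1, 165779952 to 165871153) had 0.474, 0.576 and 1.12 FPKM with CTLA4-Ig, against 0.568, 0.981 and 0.545 FPKM with control IgG, a log2 fold change of 0.01 ± 0.17 (SE; limma without a filter, adjusted p = 0.9997). It overlaps Pou2f1, Gm32999 and Gm23402, so reads from those genes may be mixed into its values. Summed over these chain genes, the level was 4.24 ± 1.37 FPKM with CTLA4-Ig and 4.21 ± 1.03 FPKM in controls (SD, n = 3 each). Cd3g was above Cd3e in FPKM in each of the 6 libraries.

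Cd3g and Cd3d are neighbours read in opposite directions. The nearest bounds of the genes given above differ by 1338 in coordinate. The start used for the Cd3d promoter lies within the gene bounds. RefSeq promoters of both genes on GRCm38.p6, from 250 bases before to 50 after the start, are shown because the genes share this stretch of chromosome 9. Control IgG library 1 had the lowest Cd3d of all 6 libraries, and control IgG library 2 the lowest Cd3g. In control IgG libraries 1 and 2 these values rest on about 9 and 12 fragments for Cd3d, and 18 and 10 for Cd3g. A part of the promoters in these levels was not tested. The windows are chr9:44980382-44980681 on the minus strand for Cd3g and chr9:44981536-44981835 on the plus strand for Cd3d, and capitals mark the motifs found.
Cd3g: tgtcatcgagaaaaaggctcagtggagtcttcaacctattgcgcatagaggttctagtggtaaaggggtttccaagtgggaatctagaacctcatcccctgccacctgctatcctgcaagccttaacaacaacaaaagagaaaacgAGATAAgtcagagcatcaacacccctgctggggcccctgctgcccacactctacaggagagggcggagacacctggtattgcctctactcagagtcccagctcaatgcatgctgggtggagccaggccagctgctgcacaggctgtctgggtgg
Cd3d: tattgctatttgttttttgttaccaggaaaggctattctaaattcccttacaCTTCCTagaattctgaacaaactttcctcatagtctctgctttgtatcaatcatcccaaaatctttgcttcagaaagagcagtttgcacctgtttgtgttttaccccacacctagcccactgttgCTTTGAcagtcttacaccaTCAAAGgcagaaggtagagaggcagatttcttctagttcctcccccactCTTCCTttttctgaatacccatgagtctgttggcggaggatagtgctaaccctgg
The search covered both strands. It used AGGAAG for the ETS family, TGTGGT for the RUNX family, AGATAA for the GATA family, CTTTGA for the TCF and LEF family, and TATAAA as the TATA box. No 2 matches overlap in the windows shown. Cd3d held the ETS motif at 2 places and the TCF and LEF motif at 2 places, and Cd3g held the GATA motif at 1 place. Of 32851 promoters of this length, 35.4% held the ETS motif, 16.0% the TCF and LEF motif, 11.2% the GATA motif, 16.8% the RUNX motif and 13.6% the TATA box. A promoter sequence was matched for 6 of the 10 members.

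Lck, the kinase that phosphorylates the CD3 tails, had the highest level of the members. Lck (chromosome 4, 129548344 to 129573641; Mir8119 lies within it) had 2.90, 3.08 and 4.32 FPKM with CTLA4-Ig, against 1.74, 3.52 and 5.19 FPKM with control IgG. The CTLA4-Ig values all lay between the lowest and the highest control, and the log2 fold change was 0.05 ± 0.29 (SE; limma adjusted p = 0.989). It was -0.27 without control IgG library 1 and 0.32 without control IgG library 3.

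Cd4 (chromosome 6, 124864693 to 124888247), whose product binds MHC class II and brings LCK to the receptor, had 1.80, 1.40 and 1.93 FPKM with CTLA4-Ig, against 1.13, 2.38 and 2.55 FPKM with control IgG. Again control IgG library 1 was the lowest of all 6 and control IgG library 3 the highest. The log2 fold change of Cd4 was -0.12 ± 0.22 (SE; limma adjusted p = 0.957), and -0.36 without control IgG library 1, also not called. Cd2 (chromosome 3, 101275908 to 101287939), an adhesion receptor whose mouse ligand is CD48, had 1.71, 1.70 and 2.33 FPKM with CTLA4-Ig, against 1.35, 1.75 and 2.15 FPKM with control IgG. It varied least of the members, by 1.73 times from the lowest to the highest library, and its log2 fold change was 0.09 ± 0.16 (SE; limma adjusted p = 0.958).

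Of the CD28 family, Ctla4 and Icos had the lowest mean levels of the members, and Cd28 lay above Cd3e. Cd28 (chromosome 1, 60746388 to 60773359) had 0.634, 0.595 and 0.551 FPKM with CTLA4-Ig, against 0.307, 0.776 and 1.15 FPKM with control IgG. The CTLA4-Ig libraries were close together and lay inside the control range, with a log2 fold change of -0.10 ± 0.18 (SE; limma without a filter, adjusted p = 0.964); it was -0.30 without control IgG library 1 and 0.06 without control IgG library 3. Ctla4 (chromosome 1, 60909025 to 60915832), the gene of the receptor the drug is built from, had 0.0581, 0.247 and 0.101 FPKM with CTLA4-Ig, against 0.183, 0.112 and 0.234 FPKM with control IgG. It spread over 4.25 times, the widest range of the members, with a log2 fold change of -0.05 ± 0.07 (SE; limma without a filter, adjusted p = 0.950), and -0.29 with a pseudocount of 0.1. These values rest on about 1 to 4 fragments per library.

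Icos (chromosome 1, 60960773 to 61000322), whose product sustains activated and follicular helper T cells, had 0.131, 0.174 and 0.171 FPKM with CTLA4-Ig, against 0.0689, 0.127 and 0.0992 FPKM with control IgG. Each CTLA4-Ig library lay above each control, the closest pair being 0.131 and 0.127 FPKM. The ratio of the means was 1.62 and the log2 fold change 0.08 ± 0.04 (SE; limma without a filter, adjusted p = 0.946), or 0.39 with a pseudocount of 0.1. A two-sided exact permutation test gave p = 0.1, the smallest that 3 against 3 libraries allow. Of the 16897 genes, 5.33% stood without overlap in this direction. For the other members the exact permutation p ran from 0.3 (Cd3d and Cd3e) to 1 (Cd3g and Lck).

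In order of mean level over the 6 libraries the members were Lck (3.46 FPKM), Cd3g (1.87), Cd4 (1.86), Cd2 (1.83), Cd3d (1.11), Cd247 (0.711), Cd28 (0.669), Cd3e (0.545), Ctla4 (0.156) and Icos (0.129). Neighbours in this order were compared within libraries by a two-sided exact permutation test with Benjamini-Hochberg adjustment over the 9 pairs. The order was taken from the same values, so these p-values are no independent support for it. Cd2 was above Cd3d and Cd3e above Ctla4 in all 6 libraries (exact p = 0.03125, the smallest that 6 pairs allow; adjusted p = 0.141), and 0 of 9 pairs passed after adjustment. Cd3g was above Cd4 in 4 of 6 libraries and Cd4 above Cd2 in 3 of 6, so neither of these neighbours differed beyond their spread.

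**Figure D3:**
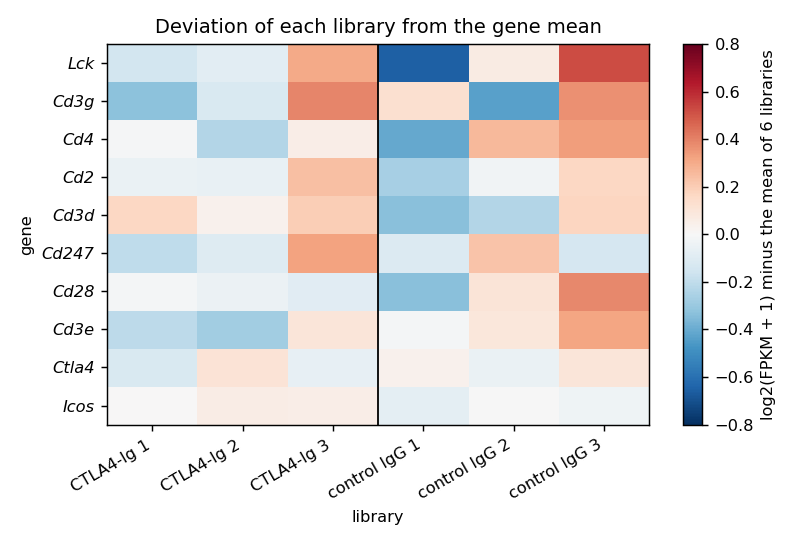
Each cell is log2(FPKM + 1) of a gene in a library minus that gene's mean over the 6 libraries, with red above and blue below the mean; the CTLA4-Ig libraries stand left of the line and the control IgG libraries right of it. Control IgG library 1 is mostly blue and control IgG library 3 and CTLA4-Ig library 3 mostly red.

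For 3 of 10 members (Lck, Cd4 and Cd28) the lowest and the highest value both lay in the control IgG group. Control IgG library 1 was the lowest of the 6 for 6 of 10 members (Cd3d, Lck, Cd4, Cd2, Cd28 and Icos). CTLA4-Ig library 3 was the highest for 4 members (Cd3d, Cd3g, Cd247 and Cd2) and control IgG library 3 for 4 (Cd3e, Lck, Cd4 and Cd28). Cx3cr1, whose locus drives the reporter used for the sort, had 24.1, 16.6 and 26.5 FPKM with CTLA4-Ig, against 12.3, 23.8 and 32.5 FPKM with control IgG, so it too was lowest in control IgG library 1 and highest in control IgG library 3. Siglech, a marker of plasmacytoid dendritic cells, had 26.3, 18.6 and 26.7 FPKM with CTLA4-Ig, against 16.0, 27.7 and 26.8 FPKM with control IgG, with the same library lowest. Their part in the variation of the members was not tested. The 5 genes whose log2(FPKM + 1) followed the mean of the 10 members most closely over the 6 libraries were Syce2 (Pearson's r = 0.989), Rb1 (0.982), Cdk19 (0.975), Adi1 (0.975) and H2-K1 (0.975). They are the 5 highest of 10860 genes, of which 101 had an r over 0.9, and rest on the same 6 libraries.

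Of the other T lineage genes, most transcription factors were under the filter of 1 FPKM, and Zbtb7b and Runx3 were not. None of the 10 listed names of receptor constant or locus genes was matched, and the alpha, beta, gamma and delta chains were not analysed here. Ptcra, the partner of the beta chain in thymocytes, had 0.0932 FPKM in CTLA4-Ig library 1 and was listed at 0 in the other two, against 0.195, 0.180 and 0.187 FPKM with control IgG. The groups did not overlap for Ptcra, as for 9.84% of the 16897 genes, and its log2 fold change was -0.21 ± 0.05 (SE; limma without a filter, unadjusted p = 0.00384, adjusted p = 0.855). Its values above 0 lay within the FPKM range of Ctla4, which rests on about 1 to 4 fragments per library. Fragments behind Ptcra were not estimated, so its difference may rest on very few. Of 10 T lineage transcription factors, 2 passed the filter: Zbtb7b, which directs CD4 lineage choice, at 60.7 ± 9.28 FPKM with CTLA4-Ig and 57.7 ± 1.46 FPKM in controls, and Runx3, which directs the CD8 lineage, at 11.0 ± 0.186 FPKM with CTLA4-Ig and 11.2 ± 0.461 FPKM in controls (SD, n = 3 each). Both stood above all 10 members, Cd4 among them, and above Cd8a. Which of the sorted cells carried Zbtb7b and Runx3 was not tested, so their levels do not measure T cell transcript. Bcl11b, which fixes T cell identity, ran from 0.0267 to 0.0697 FPKM with CTLA4-Ig and from 0.0420 to 0.0806 FPKM with control IgG. Foxp3, of regulatory T cells, was listed at 0 in all CTLA4-Ig libraries and in control IgG libraries 1 and 2, and had 0.0573 FPKM in control IgG library 3. Of these 10 factors 0 were called.

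The signalling genes with the highest levels were ones that myeloid cells also use. Of 25 genes of signalling from the receptor, 19 passed the filter, with 0 called and 0 at an unadjusted p under 0.05; 12 had a positive and 7 a negative log2 fold change, with a median of 0.0391 beside -0.0063 over all genes. Ptpn6, a phosphatase of most blood cells, averaged 314 ± 12.5 FPKM with CTLA4-Ig and 313 ± 11.9 FPKM in controls (SD, n = 3 each), and Ptprc, the phosphatase CD45, 156 ± 3.45 FPKM in the CTLA4-Ig group and 151 ± 13.6 FPKM in the control IgG group. Zap70, the kinase that docks on phosphorylated CD3 chains, had 0.660, 0.216 and 0.574 FPKM with CTLA4-Ig, against 0.799, 0.588 and 0.613 FPKM with control IgG. Nck1, an adaptor to the cytoskeleton, had a log2 fold change of 0.27 ± 0.13, and Txk, a Tec family kinase, -0.21 ± 0.10 (SE; limma adjusted p = 0.851 and, without a filter, 0.942).

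Of 14 other T cell surface genes 7 passed the filter, with 0 called, 0 at an unadjusted p under 0.05, 3 positive and 4 negative, and a median log2 fold change of -0.00084 beside -0.0063 over all genes. Cd7, also used by NK cells, averaged 29.8 ± 5.56 FPKM with CTLA4-Ig and 28.8 ± 4.36 FPKM in controls, and Thy1, a surface glycoprotein of T cells and some other cells, averaged 6.81 ± 1.07 FPKM in the CTLA4-Ig group and 6.43 ± 2.07 FPKM in the control IgG group (SD, n = 3 each). Cd6, a receptor that tunes T cell signalling, had a log2 fold change of 0.23 ± 0.12 (SE; limma without a filter, adjusted p = 0.946). Cd8a, which dendritic cells of the mouse also use, had 2.23, 1.14 and 1.57 FPKM with CTLA4-Ig, against 1.11, 2.40 and 2.79 FPKM with control IgG. Cd8b1, of the same list, had 1.99, 1.41 and 1.95 FPKM with CTLA4-Ig, against 1.48, 2.56 and 2.25 FPKM with control IgG. Cd40lg, made by activated helper T cells, was listed at 0 in all CTLA4-Ig libraries and in control IgG library 1, and had 0.0927 and 0.193 FPKM in control IgG libraries 2 and 3. Of 10 cytokine and effector genes, Il2, Il5, Il17a and Il21 were listed at 0 in all 6 libraries, 1 passed the filter and 0 were called. That gene was Il4, at 1.89 ± 0.582 FPKM with CTLA4-Ig and 1.61 ± 0.350 FPKM in controls (SD, n = 3 each), a cytokine that basophils and mast cells also make. Tnfsf11, which encodes the osteoclast-inducing ligand RANKL, had 0.148, 0.262 and 0.0859 FPKM with CTLA4-Ig, against 0, 0.0477 and 0.0994 FPKM with control IgG (limma without a filter, adjusted p = 0.942). The groups overlapped for Tnfsf11 between CTLA4-Ig library 3 and control IgG library 3. Its values were near those of Ctla4 and Icos, which rest on few fragments, and its own fragments were not estimated.

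In FPKM, the ligand genes Cd48, Icosl, Cd86 and Cd80 stood at higher mean levels than the receptor genes Cd2, Icos, Cd28 and Ctla4. Of 6 ligand genes 5 passed the filter, with 0 called, 0 at an unadjusted p under 0.05, 2 positive and 3 negative. Cd48, the ligand of CD2, averaged 172 ± 7.51 FPKM with CTLA4-Ig and 171 ± 41.6 FPKM in controls, and Icosl, the ligand of ICOS, 18.3 ± 1.29 FPKM in the CTLA4-Ig group and 18.7 ± 1.37 FPKM in the control IgG group (SD, n = 3 each). Cd86 had 8.81, 7.44 and 8.41 FPKM with CTLA4-Ig, against 9.55, 8.58 and 8.95 FPKM with control IgG, and Cd80 had 4.70, 5.70 and 4.09 FPKM with CTLA4-Ig, against 9.08, 5.50 and 3.65 FPKM with control IgG. In each of the 6 libraries Cd86 and Cd80 stood above both Cd28 and Ctla4. Of 5 inhibitory receptor genes 3 passed the filter and 0 were called; Btla, which B cells and dendritic cells also use, had 17.3, 12.5 and 17.8 FPKM with CTLA4-Ig, against 19.9, 18.97 and 20.7 FPKM with control IgG. The groups did not overlap for Btla, as for 12.2% of the 10865 genes. Its log2 fold change was -0.32 ± 0.13 (SE), with a limma unadjusted p of 0.0459 and an adjusted p of 0.810. Of the 3 inhibitory receptor genes that passed the filter, Btla alone had an unadjusted p under 0.05, as did 6.07% of the 10865 genes.

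**Figure D4:**
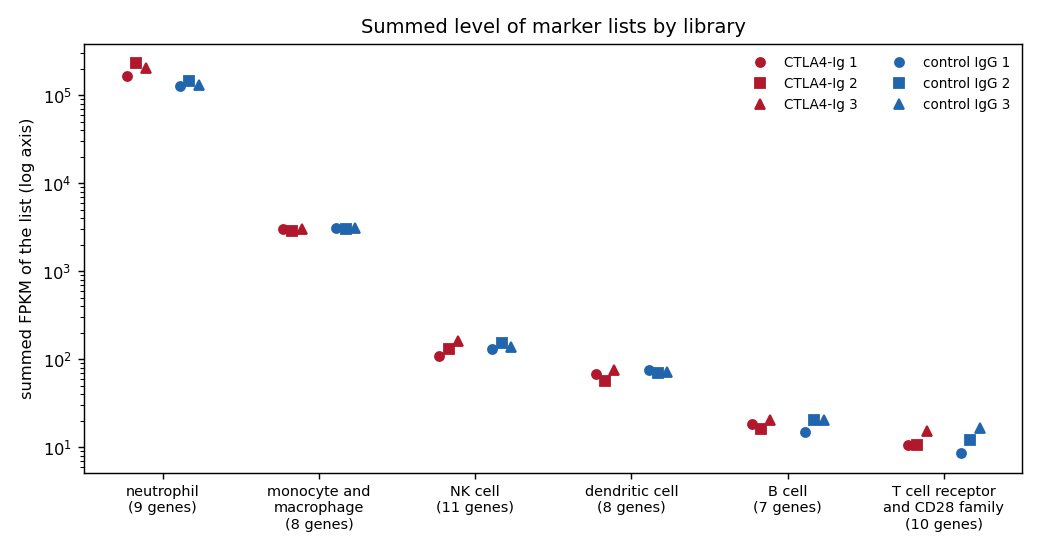
Summed FPKM of each marker list, on a log axis, for each library (circle, square and triangle for libraries 1, 2 and 3); the lists differ in their number of genes. The 10 T cell genes have the lowest sum in every library, and the groups overlap for each list except the neutrophil markers, higher with CTLA4-Ig, and the monocyte and macrophage markers, lower with CTLA4-Ig. Most of the NK cell, B cell, and monocyte and macrophage sums comes from 1 gene each, so the order of the sums does not rank the cell types.

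Markers of other cell types put the T cell level in context. All 11 NK cell markers were found, none at 0, with a summed level of 110 to 161 FPKM with CTLA4-Ig and 130 to 153 FPKM in controls. Most of this sum was Nkg7, at 72.5 to 108 FPKM with CTLA4-Ig and 87.8 to 95.7 FPKM in controls. Ncr1, which defines NK cells, had 1.84, 0.932 and 2.498 FPKM with CTLA4-Ig, against 2.01, 3.00 and 1.93 FPKM with control IgG, and stood above Cd3e in each of the 6 libraries. It did not stand above all CD3 chain genes. Cd3g was higher than Ncr1 in CTLA4-Ig libraries 2 and 3 and control IgG libraries 1 and 3, and lower in CTLA4-Ig library 1 and control IgG library 2. Of 8 B cell markers 7 were found, with sums of 16.2 to 20.3 FPKM with CTLA4-Ig and 15.0 to 20.7 FPKM in controls; Pax5 was listed at 0 in control IgG library 1. Most of the B cell sum was Cd79b, at 9.77 to 14.5 FPKM with CTLA4-Ig and 9.86 to 13.9 FPKM in controls. All 8 dendritic cell markers were found, with sums of 56.4 to 75.8 FPKM with CTLA4-Ig and 70.2 to 76.5 FPKM in controls, and all 8 monocyte and macrophage markers, with sums of 2869 to 3015 FPKM with CTLA4-Ig and 3052 to 3075 FPKM in controls. Of 10 neutrophil markers 9 were found, with sums of 165484 to 229614 FPKM with CTLA4-Ig and 128040 to 146653 FPKM in controls. The sums of neutrophil markers and of monocyte and macrophage markers did not overlap between the groups, while that of the T cell genes did. Gene by gene, 6 of 9 neutrophil markers and 0 of 8 monocyte and macrophage markers stood without overlap, beside 12.2% of the 10865 genes. Most of the monocyte and macrophage sum was Ly6c2, with a log2 fold change of -0.015 ± 0.075 (SE). Of the 8 monocyte and macrophage markers, 7 had a negative and 1 a positive log2 fold change, with a median of -0.054. The median over all genes tested with the filter was -0.0063. Whether these markers share a change was not tested. Of each marker list 0 genes were called; of the markers that passed the filter, 5 of the neutrophil list and 0 of the other marker lists had an unadjusted p under 0.05. The part of these cell types in the values of Lck, Cd2, Cd247 and Cd4 was not tested.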

How the data were processed

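RNA-seq libraries of sorted cells from 2 groups of 3 were used, grouped by title. Per the labels' protocols, a miRNeasy kit gave the RNA and a TruSeq kit the stranded mRNA libraries. The submitters' processing notes name Cuffnorm 2.2.1, TopHat2 2.0.13, Bowtie2 2.2.3 and SAMtools 0.1.19, with the build mm10; their settings, annotation and use of strand are not stated there. The deposited values are FPKM as scaled by the authors, which hold no counts, so no count test was run. Fragment numbers were estimated from the value of 1 fragment in single-transcript GENCODE M21 genes of 1000 to 6000 bases.

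The main test was limma 3.58.1 under R 4.3.3, with a trended eBayes prior, on log2(FPKM + 1) of genes averaging 1 FPKM or more, with Benjamini-Hochberg adjustment over all genes tested and a threshold of 0.05. Members under the filter were read from the fit without one. The test was checked on simulated normal values of genes that passed the filter, so the check does not cover members under it. Python 3.11.15, pandas 2.3.3, numpy 2.4.6, scipy 1.17.1 and matplotlib 3.10.9 were used for the other steps. Coordinates are those of RefSeq on GRCm38.p6. Of 136 listed genes, 124 were matched, 1 through an older symbol. The members, lists and tests were chosen with earlier results of these data known.

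All members are named; from each pathway list the 2 genes with the highest mean and the 2 with the smallest p were taken for naming, and the text gives a part of them. Bcl11b, Foxp3, Zap70, Cd8a, Cd8b1, Il2, Il5, Il17a, Il21, Siglech, Ncr1, Pax5, Nkg7, Cd79b and Ly6c2 were chosen for naming with their values known. The replicate numbers do not pair the libraries: deviations of same-numbered libraries correlated at -0.15, -0.09 and -0.02. Alternatives were pseudocounts, filters, scalings, prior settings, array weights, a replicate block, small RNA genes left out and each library left out.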

Additional observations from a re-analysis of the deposited data

How the results depend on the processing

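Over 105 values of members under alternatives that kept all libraries, 0 passed the threshold and 3 changed sign, all with array weights: 0.0393 for Cd3g, -0.0890 for Cd247 and -0.15 for Lck; the cause was not tested. Leaving out each library in turn gave 60 values, of which 13 changed sign in 6 members. The log2 fold changes then ran from -0.0233 to 0.19 for Cd2, -0.15 to 0.13 for Cd247, -0.30 to 0.0645 for Cd28, -0.27 to 0.13 for Cd3g, -0.36 to 0.0116 for Cd4 and -0.27 to 0.32 for Lck. Cd3d (0.16 to 0.42), Cd3e (-0.37 to -0.17), Ctla4 (-0.12 to -0.0043) and Icos (0.06 to 0.10) kept their sign. The smallest adjusted p of a member over all alternatives was 0.598 in limma. Over all genes limma called 0 under each alternative with all libraries. It called 2, 1 and 6 genes without CTLA4-Ig library 1, 2 and 3, and 0, 1 and 2 without control IgG library 1, 2 and 3, and 0 members each time. With all libraries, 659 genes had an unadjusted p under 0.05, against 338 without CTLA4-Ig library 2. With a mean of at least 5 FPKM no member was left to test. With a replicate block 0 genes and 0 members were called, and Cd3e had a log2 fold change of -0.26; the numbers do not pair the libraries.

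The members' share of all FPKM with CTLA4-Ig was 0.00185% when S100a8 and S100a9 were left out of the sum, against 0.00148% with them. With control IgG the share was 0.00198% without these genes, against 0.00169% with them. Leaving out a library moved the share to between 0.00132 and 0.00160% with CTLA4-Ig and between 0.00137 and 0.00196% with control IgG. Members at a few fragments per library limit what can be detected: intervals on the scale of log2(FPKM + 1) understate relative changes of Icos and Ctla4.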
